A study of Mus musculus with 564 samples.

Results

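AZD8186, TG100115, MK2206 and GSK2110183 are clinical kinase inhibitors (CKIs) directed at selected isoforms of phosphoinositide 3-kinase (PI3K) or at AKT. All libraries of the series named for 1 of these 4 compounds were taken, which gave 37 of 564 libraries: 9 for AZD8186, 10 for TG100115, 8 for MK2206 and 10 for GSK2110183. The cells were mouse bone marrow-derived macrophages (BMDMs), primary macrophages grown from the marrow of wild type C57/BL6 mice. They received vehicle (DMSO) or a CKI for 1 h and then either no stimulus (UT), 10 ng/mL LPS, which bacteria carry and TLR4 senses, or 10 ng/mL interleukin 4 (IL-4). Stimulation lasted 30 min, 1 h, 2 h or 4 h. The UT samples of the CKIs carry 4 h without stimulus in their treatment labels but 0 h in their titles. How long the UT cells stayed in the CKI is therefore not known. All groups therefore share the mouse strain and the cell type, and the controls carry the vehicle. The methods of the study state that the mice were male and give their age, which the labels do not. Which libraries share a culture is not given in the labels. Each group of 1 CKI, stimulus and time held 1 library, except TG100115 at 30 min of LPS and GSK2110183 at 2 h of LPS, which held 2, and MK2206 at 4 h of LPS, which had no library. DMSO had 18 libraries, 2 for each stimulus and time, and the 54 other CKIs had 509.

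The measurement was the acetylation of lysine 27 of histone H3 (H3K27ac) by ChIP-seq. Active promoters and enhancers carry this mark, which was read at 59190 cis-regulatory elements (CREs). Values are normalized read counts as deposited, on the mouse build mm10, and a CRE is named by its promoter or by the nearest gene.

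PI3Ks phosphorylate the membrane lipid phosphatidylinositol 4,5-bisphosphate, and the product recruits AKT to the membrane, where AKT is activated. Active AKT keeps FOXO transcription factors out of the nucleus and relieves the inhibition of mTORC1 by the TSC complex. In macrophages the PI3K delta and gamma isoforms are the prominent leukocyte forms. TLR4 uses PI3K alongside the NF-kB and interferon branches, and the IL-4 receptor reaches PI3K through the adaptor IRS2 in parallel with STAT6. AZD8186 is directed at the beta and delta isoforms and TG100115 at the gamma and delta isoforms. MK2206 binds AKT outside the ATP site, and GSK2110183 competes with ATP. The compounds were each used at a concentration of their own, set from binding to a chosen target, so their values stand side by side below and no compound was tested against another.

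The libraries differed in depth and in contrast, taken here as the ratio of the median of the top 10% of CREs to that of the bottom 10%. Contrast was 53.0 to 134 in DMSO, 6.68 to 25.4 in AZD8186, 7.28 to 29.1 in TG100115 and 9.28 to 23.9 in MK2206. It was 23.9 to 44.8 in GSK2110183, except in the second library at 2 h of LPS (title suffix b), where it was 7.42. The number of reads in CREs, estimated from the spacing of the values, was 529642 to 1819520 in AZD8186, 571517 to 2064930 in TG100115 and 680812 to 1841090 in MK2206. GSK2110183 reached 1978210 to 4673760 in the 5 of 10 libraries that allowed the estimate, and DMSO 2344200 to 4660860 in 11 of 18. A single read was therefore worth 3.50 to 10.5 units of the deposited value in AZD8186, 3.21 to 12.9 in TG100115 and 3.75 to 9.62 in MK2206, against 1.41 to 2.54 in DMSO. The SD of the log2 difference between 2 libraries of 1 group was 0.30 to 0.45 over the 9 DMSO pairs, 1.04 for TG100115 at 30 min of LPS and 0.91 for GSK2110183 at 2 h of LPS. The table columns fell into 6 consecutive blocks of compounds, called runs here, with AZD8186 in run 1, TG100115 and MK2206 in run 2 and GSK2110183 in run 4. DMSO was in none of them, so a difference from DMSO and a difference between runs cannot be told apart, and the comparison with the other inhibitors of the same run is given beside it. Promoter CREs of all 12 macrophage markers had values in every member library, the lowest being 47 at Mertk. Their summed value had a median of 7496 in AZD8186, 7618 in TG100115, 7295 in MK2206 and 9282 in GSK2110183, against 9579 in DMSO. Of the T cell markers 1 of 8 had a promoter CRE, and of the B cell markers 3 of 6. The 4 promoter CREs of neutrophil and granulocyte precursor markers summed to a median of 320 in AZD8186, 280 in TG100115, 310 in MK2206 and 217 in GSK2110183, against 142 in DMSO. The 3 promoter CREs of fibroblast and stroma markers summed to medians of 110, 80.5, 85 and 74 in the same order, against 26.5 in DMSO. Other markers went the other way. The 4 promoter CREs of endothelium markers summed to medians of 796, 791.5, 760.5 and 873.5, against 962.5 in DMSO. The 3 of dendritic cell markers summed to 319, 395.5, 343 and 304, against 428. The 1 T cell promoter CRE had medians of 79, 84.5, 82 and 110, against 111.5. B cell and erythroid markers lay on both sides of DMSO. The part of these markers in the results was not tested.

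The first comparison asked where H3K27ac differed from vehicle along each time course. Each fit held the libraries of that stimulus and the UT libraries, of DMSO and of all 58 CKIs. The UT library of a compound thus counts in both time courses. A CRE was called where the adjusted p of limma (Benjamini-Hochberg over all CREs tested) was under 0.05 and the log2 difference was over 0.5 in size. After LPS the calls were 28206 of 59163 CREs for AZD8186 (47.7%), 17165 for TG100115 (29%), 11982 for MK2206 (20.3%) and 4974 for GSK2110183 (8.41%). After IL-4 they were 31795 of 59147 for AZD8186 (53.8%), 29222 for MK2206 (49.4%), 25170 for TG100115 (42.6%) and 7176 for GSK2110183 (12.1%). Most of the called CREs were higher than in DMSO. Lower CREs numbered 5873 for AZD8186 after LPS (9.93% of all CREs), 1160 for TG100115 (1.96%), 1414 for MK2206 (2.39%) and 271 for GSK2110183 (0.458%). Over all 58 CKIs the calls after LPS ran from 556 to 35892, with a median of 21810.5. AZD8186 stood 17th in that order, TG100115 43rd, MK2206 51st and GSK2110183 53rd. The direction depended on the scaling. With all libraries rescaled to the same median, the calls after LPS were 12363 higher and 21366 lower for AZD8186, 6414 and 14205 for TG100115, 5710 and 11431 for MK2206 and 2690 and 1679 for GSK2110183. After IL-4 they were 16182 and 22584, 11806 and 16809, 12777 and 20721, and 6204 and 3393. The median log2 difference over all CREs after LPS then moved from 0.37 to -0.22 in AZD8186 and from 0.33 to -0.10 in MK2206 cells. Quantile normalization left 7157, 166, 119 and 49 calls after LPS and 9613, 462, 3004 and 263 after IL-4, in the order AZD8186, TG100115, MK2206 and GSK2110183.

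The difference from DMSO followed the level of the CRE. In the lowest quintile of CREs by their mean in DMSO, where the median mean was 7.8, the median log2 difference after LPS was 1.56 for AZD8186, and 89.9% of the CREs were called higher. In the highest quintile, where the median mean was 272.1, it was -0.40, and 36.6% were called lower. Weak CREs were thus higher and strong CREs lower than in vehicle. The quintiles were set with the same DMSO libraries as the difference, which by itself draws weak CREs up and strong CREs down. The size of that part was not tested. GSK2110183 had a median of 0.79 in the lowest quintile, and 1.66% of its highest quintile was called lower. TG100115 and MK2206 lay between these compounds in the lowest quintile after both stimuli. The order of contrast given above, lowest in AZD8186 and highest in GSK2110183 among the members, moved with this slope, and its part was not tested.

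**Figure D1:**
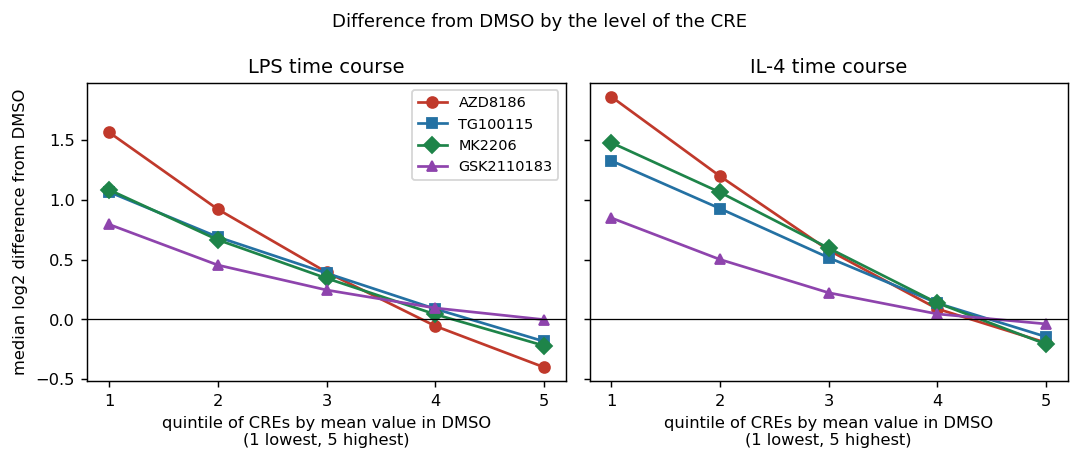
Median log2 difference from DMSO (y axis) in quintiles of CREs ordered by their mean value in DMSO (x axis, 1 lowest to 5 highest), for the LPS and IL-4 time courses. Each line is 1 compound, and all 4 lines fall from the weakest to the strongest CREs, from 1.56 to -0.40 for AZD8186 after LPS.

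Interferon-stimulated genes form the second wave of the LPS response, since LPS induces interferon beta, which acts back on the cells through its receptor. The promoters of 3 of them are shown because they carry 2 copies of GAAA with 2 bases between them, the core of the element that interferon-activated factors bind, and because their H3K27ac values are given next. Each line holds 60 bases of RefSeq promoter sequence (mm10, strand of the gene), with 1 match in capitals on either strand.
Ifit1, chr19:34640779-34640838: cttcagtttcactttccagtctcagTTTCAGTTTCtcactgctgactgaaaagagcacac
Cxcl10, chr5:92349068-92349127: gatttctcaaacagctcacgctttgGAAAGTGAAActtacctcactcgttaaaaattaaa
Ifit3, chr19:34583382-34583441: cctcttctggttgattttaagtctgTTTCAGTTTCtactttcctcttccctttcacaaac
The element was found in 13 of the 32 listed interferon-stimulated genes with promoter sequence (250 bases before the start), against 3.04% of 27025 promoters. Among CREs, their central 500 bases held it in 7.94% of all tested and in 13.5% of the 5873 called lower for AZD8186 after LPS. The share was 7.07% of those lower for TG100115, 9.26% for MK2206 and 16.6% for GSK2110183.

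Against DMSO, 28 of 37 promoter CREs of interferon-stimulated genes were lower after LPS in AZD8186 cells and none was higher. Lower CREs made up 9.93% of all CREs and 36.6% of the highest quintile by DMSO mean. The median log2 difference of the list was -0.67, beside 0.37 over all CREs and -0.40 in the highest quintile by DMSO mean. The count was 3 lower in TG100115 cells (1.96% of all CREs), 2 in MK2206 cells (2.39%) and 1 in GSK2110183 cells (0.458%), and without DMSO replicate 2 these counts were 2, 0 and 0. The 9 other inhibitors of run 1 had 21 to 32 lower, so the count of AZD8186 lay within the range of its run. In run 2 the other inhibitors had 1 to 28 lower and those of run 4 had 0 to 34. None of the 37 promoters was called by limma against the other inhibitors of the run in any of the 4 compounds (unadjusted p under 0.05 in 0 for AZD8186, 2 for TG100115, 3 for MK2206 and 0 for GSK2110183), and their median difference there was -0.01 for AZD8186, 0.23 for TG100115, 0.23 for MK2206 and 0.21 for GSK2110183. With quantile normalization AZD8186 had 4 lower promoters (median -0.26) and the other 3 compounds had none, and the medians of TG100115 and MK2206 were then 0.03 and 0.01. With rescaled medians the lower promoters numbered 37, 27, 20 and 4.

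**Figure D2:**
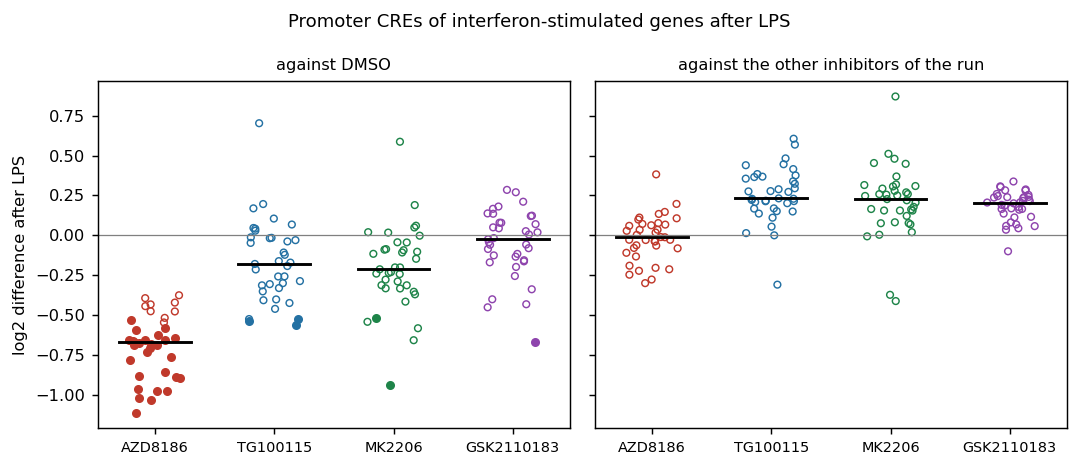
Log2 difference after LPS (y axis) of 37 promoter CREs of interferon-stimulated genes against DMSO (left) and against the other inhibitors of the run (right). Points are genes, filled where called, and bars are medians. AZD8186 has 28 filled points on the left, around a median of -0.67, and no point is filled on the right.

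Gbp2, a guanylate-binding GTPase of antimicrobial defence, changed most in this list for AZD8186. Its promoter CRE read 419 and 405 at 30 min, 858 and 724 at 1 h, 1336 and 1420 at 2 h and 1139 and 1169 at 4 h of LPS in the DMSO libraries, from 192 and 194 in UT. In AZD8186 cells it read 129 in UT and 261, 329, 336 and 541 at the 4 times. All 4 stimulated values were below both DMSO values of their time, and the log2 difference was -1.11 (SE 0.20, limma adjusted p = 2.51e-06). Run 1 had medians over its other inhibitors of 239.5, 365, 506 and 598.5 at these times, and against them the difference of Gbp2 was -0.20 (SE 0.24, limma adjusted p = 0.997). TG100115 reached 1085 at 1 h and 922 at 2 h, and MK2206 951 and 892.

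Cxcl10, which encodes a chemokine for T cells, was marked strongly in all 4 compounds after LPS. AZD8186 had 105 in UT and 482, 463, 598 and 722 along the time course. DMSO had 60 and 56 in UT and 645 to 1304 after stimulation. The AZD8186 values were lower than DMSO at each stimulated time, and with a log2 difference of -0.43 (SE 0.19, limma adjusted p = 0.0432) the CRE did not reach the required size. MK2206 read 558, 792 and 1005 at 30 min, 1 h and 2 h, TG100115 888, 1109 and 919 at 1 h, 2 h and 4 h, and GSK2110183 640, 709 and 1015 at 30 min, 1 h and 4 h. After IL-4 the same promoter was higher than DMSO in AZD8186 cells by 1.35 (SE 0.26) and in TG100115 cells by 1.09 (SE 0.26) on the log2 scale, with limma adjusted p of 4.06e-06 and 0.000558. In MK2206 cells Cxcl10 was higher by 1.33 (SE 0.26, limma adjusted p = 1.28e-05), and against the other inhibitors of the run none of the 4 compounds was called at it.

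Ifit1 and Ifit3 encode antiviral proteins that bind viral RNA. Ifit1 rose in DMSO from 109 and 84 in UT to 751 and 712 at 2 h of LPS, and in AZD8186 cells it rose from 94 to 262 at 2 h and 419 at 4 h. Its log2 difference from DMSO was -0.68 for AZD8186 (SE 0.22, limma adjusted p = 0.00686). Ifit3 was lower than DMSO in AZD8186 cells by 0.88 (SE 0.30, limma adjusted p = 0.0108) on the log2 scale. In MK2206 cells Ifit3 was at 29 at 30 min, 388 at 1 h and 540 at 2 h, against 124 and 160, 395 and 328, and 758 and 653 in DMSO. The low value of MK2206 was thus at 30 min, in a library where 1 read was worth 9.62 units, and the call (log2 difference -0.94, SE 0.33, limma adjusted p = 0.0307) was not made without the 30 min library (-0.55), without the UT library (-0.73) or without either DMSO replicate (-0.88 and -0.99).

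LPS inflammatory genes are the targets of NF-kB and AP-1 that encode cytokines, chemokines and acute-phase proteins. After LPS, AZD8186 had 14 of 38 lower and 1 higher (9.93% and 37.7% of all CREs). Among CREs of the highest quintile by DMSO mean, 36.6% were lower with AZD8186 and 0.389% higher. The other inhibitors of run 1 had 6 to 17 of the list lower. TG100115 had 2 higher (27.1% of all CREs), MK2206 3 higher and 2 lower (17.9% and 2.39%), and GSK2110183 1 higher (7.95%). With rescaled medians 32, 29, 23 and 1 were lower, and with quantile normalization 4 were lower in AZD8186 cells, where the median of the list turned to 0.05. Ccl3, which encodes the chemokine MIP-1 alpha, read 379, 311, 294 and 491 in AZD8186 cells at the 4 times, where DMSO read 634 to 893. The difference of Ccl3 from DMSO in AZD8186 cells was -1.07 (SE 0.14, limma adjusted p = 3.61e-10). Against the other inhibitors of run 1 none of the 38 promoters was called in AZD8186 cells after LPS, and their lowest difference was -0.31. In MK2206 cells Ccl3 was at 404, 547 and 589 and was lower by 0.61 on the log2 scale (SE 0.15, limma adjusted p = 0.00371). Tnf, the gene of tumour necrosis factor, differed from DMSO by -0.37 in AZD8186, -0.18 in TG100115, -0.23 in MK2206 and 0.34 in GSK2110183 cells, and none of these was called. Nos2, the inducible nitric oxide synthase, was higher than DMSO in GSK2110183 cells, with 66, 184, 502, 278 and 551 against 13 to 19, 91 to 106, 251 to 270 and 314 to 370 (difference 1.05, SE 0.26, limma adjusted p = 0.00724). The other inhibitors of run 4 had medians of 52, 174, 483 and 620 at Nos2, and against them the difference was 0.03. Without the 2 h libraries of GSK2110183 the difference was 1.03 (limma adjusted p = 0.0645) and without DMSO replicate 2 it was 1.02 (limma adjusted p = 0.065), so Nos2 was then not called. Lcn2, which encodes the iron-scavenging protein lipocalin 2, was higher in TG100115 cells by 1.16 (SE 0.28, limma adjusted p = 0.00157) and in MK2206 cells by 1.20 (SE 0.32, limma adjusted p = 0.00625). The MK2206 call at Lcn2 was not made without DMSO replicate 2, where the difference was 0.99.

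After IL-4, which does not induce this inflammatory set, higher promoters outnumbered lower ones in each compound, as they did over all CREs. AZD8186 had 16 of 38 higher (48.5% of all CREs were), TG100115 13 (41.2%), MK2206 13 (46.4%) and GSK2110183 6 (11.1%). The other inhibitors had 10 to 16 higher in run 1, 10 to 15 in run 2 and 4 to 14 in run 4, so no compound stood outside its run in this count. With quantile normalization 10, 3, 6 and 0 were higher and 3, 1, 1 and 1 lower, and with rescaled medians 6, 4, 6 and 4 were higher and 22, 20, 22 and 2 lower, so that the balance turned in AZD8186, TG100115 and MK2206 cells with the latter and in GSK2110183 cells with the former. Saa3, which encodes the acute-phase protein serum amyloid A3, read 259, 197, 186 and 219 in AZD8186 cells and 19 to 61 in DMSO (difference 2.38, SE 0.28, limma adjusted p = 6.37e-13). The AZD8186 value of Saa3 was already 171 in UT, against 48 and 35 in DMSO. Against the other inhibitors of run 1 none of the 38 promoters was called in AZD8186 cells after IL-4, and their highest difference was 0.63. Il12b, the gene of the p40 subunit of IL-12, read 130, 44, 46 and 166 in MK2206 cells, where DMSO read 3 to 16 (difference 2.34, SE 0.33, limma adjusted p = 7.61e-09). TG100115 cells had 61, 19, 54 and 32 at Il12b (difference 1.72, SE 0.33, limma adjusted p = 3.47e-05). The other inhibitors of run 2 had 10 to 132 at the Il12b CRE, and MK2206 was highest of its run at 4 h only, where their highest was 89.

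IL-4-induced genes mark alternative activation. Arg1, the gene of arginase 1, rose in DMSO from 123 and 141 in UT to between 564 and 747. It rose to between 279 and 578 in AZD8186, 401 and 587 in TG100115, 249 and 578 in MK2206 and 504 and 529 in GSK2110183 cells. The response of Arg1 was thus present in all 4 compounds, at a lower level in AZD8186 cells (difference -0.55, SE 0.16, limma adjusted p = 0.00144) and in MK2206 cells (-0.58, SE 0.16, limma adjusted p = 0.000956). Against the other inhibitors of the run Arg1 differed by 0.21 and -0.21 in these compounds, neither of which was called. Egr2, which encodes a transcription factor induced early by IL-4 through STAT6, rose to between 438 and 611 in AZD8186, 466 and 580 in TG100115, 398 and 584 in MK2206 and 647 and 866 in GSK2110183 cells, against 543 to 852 in DMSO. After LPS Egr2 peaked in DMSO at 754 and 759 at 30 min and was 702 and 785 at 1 h. In MK2206 cells it was 481 at 30 min and 213 at 1 h, and in TG100115 cells 322 and 654 at 30 min and 283 at 1 h, while AZD8186 had 587 and GSK2110183 918 at 1 h. The 1 h values of Egr2 in both run 2 members were thus far below DMSO, and the MK2206 difference over the time course was -0.70 (SE 0.19, limma adjusted p = 0.00614), which without the 1 h library was -0.38 and not called. In run 2 the others had 220 to 700 at that time, with a median of 448, and against them the MK2206 difference was -0.44 (SE 0.18, limma adjusted p = 0.458). Over the whole list, 4 of 31 promoters were higher and 3 lower in AZD8186 cells after LPS (37.7% and 9.93% of all CREs). After IL-4, 2 were higher and 1 lower (48.5% and 5.25%). With rescaled medians AZD8186 had none higher and 19 lower after LPS, and with quantile normalization none of either. MK2206 had 2 higher and 3 lower after IL-4 (46.4% and 3.02% of all CREs), TG100115 1 higher and 2 lower (41.2% and 1.31%), and GSK2110183 1 higher (11.1%). The other inhibitors of run 2 had 1 to 4 higher and 0 to 4 lower beside the counts of MK2206.

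**Figure D3:**
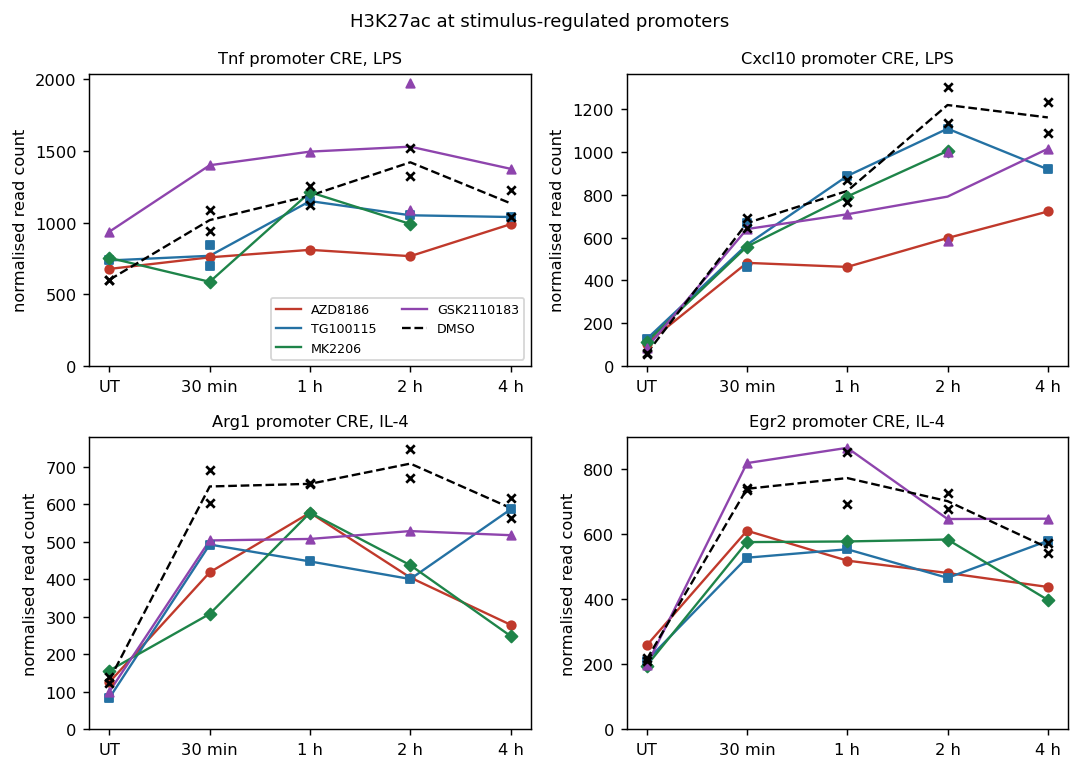
Normalised read count (y axis) of 4 promoter CREs against time of stimulation (x axis, UT and 4 times), LPS above and IL-4 below. Points are libraries, lines join the means of each time, and DMSO is the dashed line with crosses. Arg1 rises from under 160 in UT in all compounds, to between 564 and 747 in DMSO and between 249 and 578 in MK2206 cells.

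The genes of the pathway itself were examined next. Of 43 promoters of PI3K, AKT and mTOR pathway genes, AZD8186 had 3 higher and 7 lower than DMSO after LPS (37.7% and 9.93% of all CREs), and 3 higher and 2 lower after IL-4 (5.25% of all CREs were lower there). TG100115 had 5 lower after LPS (1.96% of all CREs), and 1 higher and 3 lower after IL-4 (41.2% and 1.31%). MK2206 had 1 higher and 3 lower after LPS (17.9% and 2.39%), and 1 higher and 7 lower after IL-4 (46.4% and 3.02%). In the highest quintile by DMSO mean, 11.6% of CREs were lower with MK2206 after IL-4. GSK2110183 had 1 higher after each stimulus (7.95% of all CREs higher after LPS and 11.1% after IL-4). With rescaled medians 38, 39, 29 and 0 were lower after LPS and none higher, and with quantile normalization none was lower and 1 was higher, in AZD8186 cells. No pathway promoter was called against the other inhibitors of the run in any compound after LPS, after IL-4 or in UT, where limma gave 0 to 7 of 43 with an unadjusted p under 0.05. Pik3cd, the gene of the delta catalytic subunit, read 519, 738, 684 and 307 in MK2206 cells along the IL-4 time course and 729 to 992 in DMSO (difference -0.68, SE 0.10, limma adjusted p = 7.13e-09). TG100115 had 645, 559, 639 and 664 at Pik3cd, with a difference of -0.48 that did not reach the required size. Pik3cg, the gene of the gamma catalytic subunit, read 535, 519, 253 and 269 in AZD8186 cells after IL-4, where DMSO read 682 and 633, 696 and 672, 651 and 660, and 546 and 413 (difference -0.69, SE 0.12, limma adjusted p = 3.62e-07). Among the genes of the AKT kinases, Akt2 was lower than DMSO after LPS in AZD8186 (-0.55, SE 0.16), TG100115 (-0.51, SE 0.15) and MK2206 cells (-0.57, SE 0.18), with limma adjusted p of 0.00284, 0.00807 and 0.0145.

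Other pathway members were called in 1 or several compounds. Sgk3, which encodes a kinase related to AKT, was lower than DMSO after LPS in AZD8186 cells, with 95, 276, 220 and 361 against 160 to 189, 391 to 393, 593 to 607 and 561 to 624 (difference -0.83, SE 0.19, limma adjusted p = 0.000141). In MK2206 cells Sgk3 differed by -0.70 (SE 0.21, limma adjusted p = 0.0114), and by -0.33 without the 30 min library and -0.69 without DMSO replicate 2, neither of which was called. Tsc1, which encodes a subunit of the TSC complex, read 206 and 176 at 30 min and 93, 112 and 104 at the later times of LPS in TG100115 cells, where DMSO read 169 to 270 (difference -0.68, SE 0.17, limma adjusted p = 0.00225). The 3 later values of Tsc1 lay below all DMSO values, and MK2206 cells had 125, 154 and 142 (-0.58, SE 0.20, limma adjusted p = 0.0273). Gab2, an adaptor that recruits PI3K, differed from DMSO after IL-4 by -0.83 in MK2206 cells (SE 0.11, limma adjusted p = 2.72e-09) and by -0.63 in TG100115 cells (SE 0.11, limma adjusted p = 1.43e-05). Pik3r2, the gene of a regulatory subunit, was higher in GSK2110183 cells by 0.66 after LPS (SE 0.14, limma adjusted p = 0.000979) and by 0.55 after IL-4 (SE 0.11, limma adjusted p = 0.000247), and the LPS difference was 0.56 and not called without the 2 h libraries. With rescaled medians neither GSK2110183 call was made, and with quantile normalization that after LPS was not made. Pik3r2 was also higher in AZD8186 cells by 0.69 after LPS (SE 0.14, limma adjusted p = 2.95e-05) and 0.61 after IL-4 (SE 0.11, limma adjusted p = 4.69e-07), in MK2206 cells after LPS (0.55, SE 0.15, limma adjusted p = 0.00872) and in TG100115 cells after IL-4 (0.61, SE 0.11, limma adjusted p = 7.14e-06).

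FOXO targets are genes that FOXO factors activate, among them regulators of growth arrest, autophagy and insulin signalling. Their 34 promoters had a median difference from DMSO of -0.29 after LPS and -0.15 after IL-4 in MK2206 cells, the lowest of the 58 CKIs after each stimulus. TG100115 was 3rd lowest after LPS (-0.25) and 4th lowest after IL-4 (-0.06), AZD8186 8th lowest after LPS (-0.19) but 39th after IL-4 (0.11), and GSK2110183 had 0.03 and -0.02. The median over all CREs was above 0 in every one of these comparisons, 0.33 after LPS and 0.55 after IL-4 in MK2206 cells. In the highest quintile of CREs by DMSO mean, the MK2206 medians were -0.22 after LPS and -0.21 after IL-4. The part of the level of these promoters was not tested. With rescaled medians the MK2206 medians were -0.76 and -0.94 and with quantile normalization -0.17 and -0.12, so they stayed below 0, while those of GSK2110183 after LPS were -0.26 and 0.02, and that of AZD8186 after LPS turned to 0.02 with quantile normalization. MK2206 had 2 single genes lower after LPS (2.39% of all CREs), and 1 higher and 3 lower after IL-4 (46.4% and 3.02%), while with rescaled medians 24 were lower after LPS and 31 after IL-4. Ccng2, the gene of cyclin G2, differed after LPS by -0.61 in MK2206 cells (SE 0.15, limma adjusted p = 0.00371) and by -0.66 in AZD8186 cells (SE 0.14, limma adjusted p = 3.96e-05). Bcl6, which encodes a transcriptional repressor, differed after IL-4 by -0.82 in TG100115 (SE 0.19, limma adjusted p = 0.000265), -0.63 in MK2206 (SE 0.19, limma adjusted p = 0.00253) and -0.57 in GSK2110183 cells (SE 0.19, limma adjusted p = 0.0269). The GSK2110183 call at Bcl6 was not made without either DMSO replicate (-0.51 and -0.64), without the UT library (-0.47) or without the 2 h library (-0.56). The ranks above are of differences from DMSO across the runs, so compound and run cannot be told apart in them. Against the other inhibitors of the run the median of the list was -0.07 after LPS and -0.16 after IL-4 in MK2206 cells, beside -0.04 and 0.03 over all CREs, and no promoter of the list was called by limma, with 4 and 6 of 34 at an unadjusted p under 0.05. The medians there were 0.03 and -0.04 in TG100115, -0.05 and -0.01 in AZD8186 and 0.08 and -0.05 in GSK2110183 cells.

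Irs2, which encodes the adaptor that links the IL-4 receptor to PI3K and is itself a FOXO target, showed the lowest values of the list after IL-4 in MK2206 cells. They were 250 in UT, 122 at 30 min, 187 at 1 h, 77 at 2 h and 41 at 4 h. DMSO read 200 and 210, 266 and 278, 286 and 247, 231 and 235, and 157 and 194. MK2206 cells were therefore above both DMSO libraries in UT and below them at 4 h (difference over the time course -0.97, SE 0.18, limma adjusted p = 3.26e-06), a call that held without any 1 of the times. In run 2 the others had 118 to 238 at 2 h and 146 to 226 at 4 h. Against them the difference of Irs2 was -0.86 (SE 0.23), and with a limma adjusted p of 0.0862 it was not called. GSK2110183 had 230, 331, 294 and 183 at Irs2 after IL-4 and AZD8186 227, 219, 219 and 159. After LPS Irs2 was lower than DMSO in TG100115 cells (-0.64, SE 0.22, limma adjusted p = 0.0171), with 77 and 202 at 30 min and 98, 65 and 73 later, while MK2206 differed by -0.12. The TG100115 difference at Irs2 was -0.60 without the 30 min libraries and -0.42 without DMSO replicate 2, and was then not called.

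mTORC1 promotes sterol and lipid synthesis through SREBP and the serine and one-carbon pathways through ATF4, and it restrains TFEB, which activates lysosomal genes. Of 24 promoters of the first kind, AZD8186 had 4 higher and 2 lower than DMSO after LPS (37.7% and 9.93% of all CREs) and MK2206 had 3 higher and 2 lower after IL-4 (46.4% and 3.02%). With rescaled medians these were 0 higher and 17 lower, and 0 and 19, and with quantile normalization 0 and 0, and 0 and 1. Scd2, which encodes a stearoyl-CoA desaturase, was higher than DMSO after LPS in all 4 compounds, by 1.33 in MK2206 (SE 0.25, limma adjusted p = 0.000113), 0.82 in AZD8186 (SE 0.23, limma adjusted p = 0.0015), 0.80 in GSK2110183 (SE 0.22, limma adjusted p = 0.0139) and 0.71 in TG100115 cells (SE 0.22, limma adjusted p = 0.00896). Without the 30 min libraries the TG100115 difference at Scd2 was 0.59 and not called. With rescaled medians Scd2 was not called in AZD8186 (0.22) or TG100115 cells (0.21), and with quantile normalization it was not called in AZD8186 (0.23), TG100115 (0.26) or MK2206 cells (0.89). Scd2 read 171 in UT and 87, 122 and 67 after LPS in MK2206 cells, where DMSO fell from 87 and 90 to between 24 and 33 at the same times. Phgdh, the first enzyme of serine synthesis, was higher after IL-4 in AZD8186 (1.16, SE 0.23), TG100115 (1.07, SE 0.23) and MK2206 cells (0.86, SE 0.23), with limma adjusted p of 7.75e-06, 0.000171 and 0.00106. None of these 3 calls at Phgdh was made with rescaled medians (0.40, 0.49 and 0.14) or quantile normalization (0.54, 0.52 and 0.09). Against the other inhibitors of the run none of the 24 promoters was called higher in any compound after LPS or IL-4. The highest difference of the list there after LPS was 0.34 in AZD8186, 0.28 in TG100115, 0.60 in MK2206 and 0.23 in GSK2110183 cells. After IL-4 it was 0.37 in AZD8186, 0.46 in TG100115 and 0.34 in MK2206 cells. In untreated cells the 24 promoters had a median difference of 0.42 from the other inhibitors of run 2 in MK2206 cells, beside -0.08 over all CREs. None of them was called there, and 7 of 24 had an unadjusted limma p under 0.05.

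Of 23 promoters of lysosomal genes, 9 were lower than DMSO after LPS in AZD8186 cells. The share was 9.93% of all CREs and 36.6% of the highest quintile by DMSO mean. The other inhibitors of run 1 had 3 to 11 lower. TG100115 had 2 lower (1.96% of all CREs) and MK2206 2 (2.39%), and GSK2110183 had none higher or lower. The AZD8186 count was 2 without DMSO replicate 2, 2 with quantile normalization and 23 with rescaled medians. After IL-4 the lower promoters numbered 2, 3, 6 and 0 (5.25%, 1.31%, 3.02% and 1.06% of all CREs). The other inhibitors of run 2 had 1 to 5 beside the 6 of MK2206. With quantile normalization MK2206 had 3 lower and with rescaled medians 23. Lamp2, which encodes a lysosomal membrane protein, read 71, 53, 63 and 79 in AZD8186 cells along the LPS time course and 105 to 185 in DMSO (difference -0.93, SE 0.26, limma adjusted p = 0.00155). TG100115 had 20, 82, 65 and 96 at Lamp2 after IL-4, where DMSO had 110 to 146 (difference -0.97, SE 0.21, limma adjusted p = 0.000163). After IL-4 Lamp2 also differed by -0.80 in AZD8186 (SE 0.21, limma adjusted p = 0.000528) and by -0.55 in MK2206 cells (SE 0.21, limma adjusted p = 0.0201). Against the other inhibitors of the run none of the 23 promoters was called in any of these comparisons. The lowest difference of the list there was -0.46 in AZD8186 cells after LPS. After IL-4 it was -0.32 in AZD8186, -0.39 in TG100115 and -0.52 in MK2206 cells. Gla, the gene of alpha-galactosidase A, differed after IL-4 by -0.74 in MK2206 (SE 0.15, limma adjusted p = 1.34e-05) and by -0.56 in TG100115 cells (SE 0.15, limma adjusted p = 0.00129). Without the 4 h library the MK2206 difference at Gla was -0.43 and not called.

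The second comparison set each compound against the other inhibitors of its run, with 1 value per compound and stimulus. After LPS it called 131 of 59168 CREs for MK2206 (0.221%), 58 for AZD8186 (0.098%) and none for TG100115 and GSK2110183. After IL-4 it called 195 of 59156 for MK2206 (0.33%), 15 for AZD8186 (0.0254%), 2 for TG100115 (0.00338%) and none for GSK2110183. In UT it called 506 of 59096 for MK2206 (0.856%), 109 for TG100115 (0.184%), 40 for AZD8186 (0.0677%) and none for GSK2110183. Nearly all called CREs were lower than in the other inhibitors, namely 129 of 131, 57 of 58, 189 of 195 and 490 of 506, so that 0.0271% of CREs were higher with MK2206 in UT. Where limma called none, an unadjusted p under 0.05 was given to 1962 CREs for TG100115 after LPS, and to 47 after LPS, 205 after IL-4 and 218 in UT for GSK2110183. Among the 58 CKIs, 32 had no call after LPS and 32 had none after IL-4. For scale, the dual PI3K and mTOR inhibitor Omipalisib of run 1 had 866 calls after LPS and 1126 after IL-4, the mTOR inhibitor AZD2014 of the same run 348 and 46, and the dual inhibitor PF04691502 of run 2 had 94 and none. In UT these 3 compounds had 946, 99 and 2350. These comparisons share libraries, since each compound is also among the others of its run. With the spread taken only from the 9 other inhibitors of the same run, no CRE was called for any of the 4 compounds under any stimulus, so all calls of this comparison rest on a spread shared over the 6 runs.

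**Figure D4:**
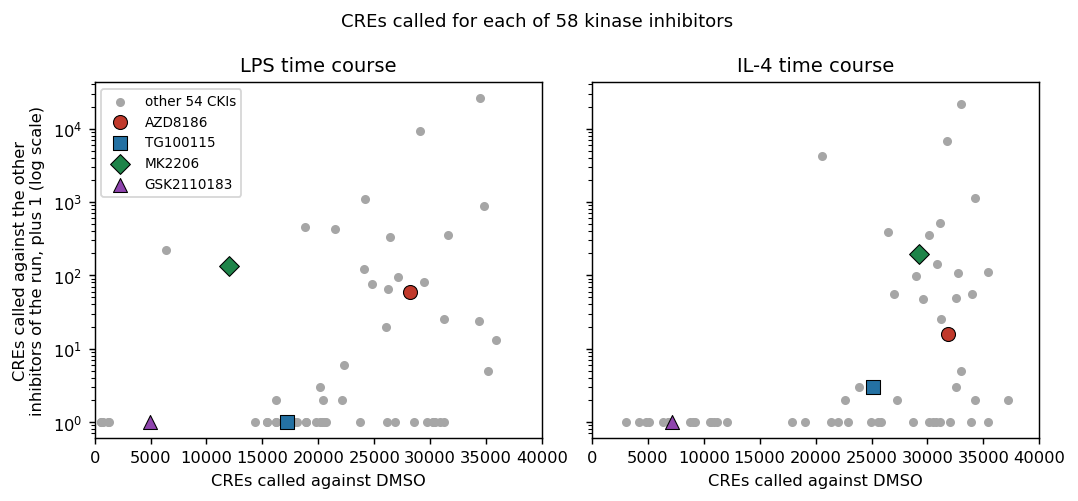
CREs called against DMSO (x axis) and against the other inhibitors of the run (y axis, log scale, 1 added so that 0 can be drawn) for each of 58 CKIs, after LPS (left) and IL-4 (right). Coloured symbols are the 4 compounds. MK2206 lies at 131 and 195 calls on the y axis, and GSK2110183 is at 0 in both panels.

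The calls were unevenly spread over the times. With a single time fitted at once, AZD8186 had 332, 119, 1740 and 402 calls at 30 min, 1 h, 2 h and 4 h of LPS and 6, 434, 575 and 794 after IL-4. These are 0.561%, 0.201%, 2.94% and 0.68% of all CREs after LPS and 0.0101%, 0.734%, 0.973% and 1.34% after IL-4. MK2206 had 665, 331 and 2 at 30 min, 1 h and 2 h of LPS, and 246, 1, 172 and 7235 along the IL-4 time course. Its shares of all CREs were 1.12%, 0.559% and 0.00338% after LPS and 0.416%, 0.00169%, 0.291% and 12.2% after IL-4. TG100115 had 5, 296, 0 and 31 after LPS (0.00845%, 0.5%, 0% and 0.0524%) and 32, 26, 1110 and 2 after IL-4 (0.0541%, 0.044%, 1.88% and 0.00338%). GSK2110183 had none at any time, with 36 to 1566 CREs at an unadjusted limma p under 0.05. The largest count, 7235 for MK2206 at 4 h of IL-4 (12.2% of CREs, 5317 of them lower), came from a library in which 3795 CREs stood at 0, against 337 to 1021 in the other MK2206 libraries. Without the 4 h libraries MK2206 had 10 calls after IL-4 in place of 195. Its count after LPS was 32 without the 30 min libraries, 340 without those of 1 h and 1211 without those of 2 h. It was 46 without those of 4 h, which are all from other compounds. A difference of 1 library from the others of its run carries the error of that library, which has no replicate.

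A single listed promoter was called against the other inhibitors of a run. It is the CRE at chr6:83325143-83327200, which spans the starts of Mthfd2, a mitochondrial one-carbon enzyme under ATF4, and of Mob1a, a cofactor of the Hippo kinases. The first bases of their transcripts lie at 83325908 and 83326016 and the genes run in opposite directions, so the acetylation cannot be assigned to either. In MK2206 cells the Mthfd2 and Mob1a CRE read 230 in UT and 81, 160, 131 and 75 after IL-4. The other inhibitors of run 2 had medians of 150.5, 200, 190.5 and 198 at the 4 times, and their lowest values were 111, 131, 168 and 139. MK2206 was thus lowest at 30 min, 2 h and 4 h, and the difference was -0.76 (SE 0.13, limma adjusted p = 0.000428). DMSO had 201 and 202, 247 and 220, 239 and 196, and 204 and 215. The same CRE differed from the run by 0.14 in TG100115, 0.15 in AZD8186 and -0.12 in GSK2110183 cells, none of which was called. Without the 4 h libraries the MK2206 difference at Mthfd2 was -0.54 and not called.

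**Figure D5:**
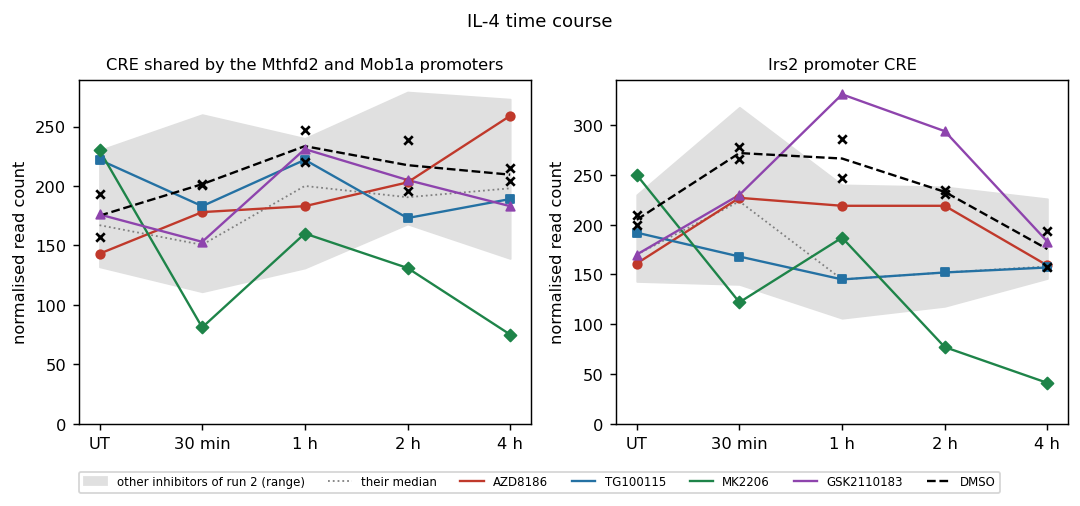
Normalised read count (y axis) at the CRE shared by the Mthfd2 and Mob1a promoters (left) and at the Irs2 promoter (right) along the IL-4 time course (x axis). Points are libraries, lines join means, and the grey band spans the lowest to the highest of the other inhibitors of run 2. MK2206 ends at 75 and 41, below the band in both panels.

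Away from the listed promoters, the CREs of MK2206 with the largest differences from the run after IL-4 included 3 higher ones. The CRE at chr3:50380935-50383718 in an intron of Slc7a11, which encodes the cystine transporter subunit xCT and is induced by ATF4, read 219, 156, 115 and 282 in MK2206 cells, from 69 in UT. The other inhibitors of run 2 had medians of 116.5, 85, 55 and 78, and DMSO had 118 and 106, 55 and 58, 43 and 29, and 66 and 56. MK2206 was above every other inhibitor of the run at 30 min, 1 h and 4 h (difference 1.09, SE 0.27, limma adjusted p = 0.0488), while the Slc7a11 CRE differed by -0.37 in TG100115, -0.19 in AZD8186 and -0.09 in GSK2110183 cells. Without the 4 h libraries the difference was 0.82 and not called. A window of 60 bases near the centre of this CRE is shown because it holds the letters TGATGNAA, a composite element of C/EBP and ATF factors, in capitals. It reads 5′ to 3′ on the minus strand, the strand of the gene.
Slc7a11, chr3:50382423-50382482: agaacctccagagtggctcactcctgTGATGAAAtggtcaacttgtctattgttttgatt
These letters occur in 7.87% of all CREs tested. The motif was chosen after the gene was seen, so the match is a description only.

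The other 2 higher CREs of MK2206 after IL-4 lay at chr8:64768029-64769577, in an intron of Klhl2 and 35011 bases from the start of the sterol enzyme gene Msmo1 (difference 1.31, SE 0.32, limma adjusted p = 0.0477), and at chr1:162018016-162019609 over an exon of Dnm3 (1.19, SE 0.28, limma adjusted p = 0.03). The first, nearest to Msmo1, read 65, 27, 69 and 75 in MK2206 cells and 5 to 13 in DMSO. Of the lower ones, the CRE in an intron of Fcgrt, nearest to Rcn3 (chr7:45094675-45096408), was the strongest. Fcgrt encodes the neonatal Fc receptor, which recycles IgG. The Rcn3 CRE read 49, 156, 154 and 17 in MK2206 cells, below the lowest of the other inhibitors at each time, which were 92, 160, 184 and 175 (difference -1.44, SE 0.21, limma adjusted p = 3.82e-05). The Neurl1b promoter read 49, 53, 31 and 0 (-1.50, SE 0.24, limma adjusted p = 0.000184), and the Tnrc18 intron 49, 40, 0 and 0 (-1.85, SE 0.23, limma adjusted p = 1.41e-06). At 4 h of IL-4, where 1 read was worth 8.30 units in MK2206 cells, a value of 0 allows up to 24.9 units (3 reads, for counting error only), and 17 units are about 2 reads. Without the 4 h libraries the differences were -0.81 at Rcn3, -0.71 at Neurl1b and -1.26 at Tnrc18, 1.11 at Msmo1 and 0.93 at the Dnm3 exon (nearest gene 4930558K02Rik), and none was called. Without those of 30 min, Msmo1 (1.45) and 4930558K02Rik (1.23) were not called, nor was Msmo1 without those of 2 h (1.01).

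After LPS the CRE at chr13:56115470-56117159 in an intron of H2afy, the gene of the histone variant macroH2A1, was higher in MK2206 cells than in the run. It is a CRE that rises with LPS, from 35 and 24 in UT to 597 and 523 at 2 h in DMSO. MK2206 had 34 in UT and 115, 340 and 551 at 30 min, 1 h and 2 h, where the medians of the other inhibitors were 66, 122.5 and 382 (difference 0.89, SE 0.215, limma adjusted p = 0.04996). At 2 h the MK2206 value of H2afy was above all the others of its run but between the DMSO values. The other higher CRE, in an intron of Rap1gap2 (chr11:74504799-74506357), read 58, 64 and 34 in MK2206 cells and 0 to 9 in DMSO at these times (1.51, SE 0.36, limma adjusted p = 0.0496). Among the lower ones, the Dna2 promoter (chr10:62946170-62947743), of a nuclease and helicase of DNA replication, read 142 in UT and 0, 16 and 45 after LPS in MK2206 cells (-1.85, SE 0.27, limma adjusted p = 8.77e-05). The lowest values of the other inhibitors at Dna2 were 38, 21 and 32. An intergenic CRE nearest to Oxa1l (chr14:54350448-54352063) read 10, 0 and 15 (-2.47, SE 0.33, limma adjusted p = 1.42e-05), below all other inhibitors of run 2 and below DMSO, which had 39 to 89. An intron of Pacsin2 (chr15:83414755-83416316) read 10, 0 and 34 (-1.96, SE 0.29, limma adjusted p = 8.77e-05). At 30 min of LPS 1 read was worth 9.62 units in MK2206 cells, so a value of 10 is 1 read. After LPS the Oxa1l CRE differed from the run by between -0.35 and 0.37 in the other 3 compounds and was not called, while in UT it was lower in AZD8186 cells (-2.57, SE 0.52, limma adjusted p = 0.029). The calls at Dna2 (-1.02) and Pacsin2 (-1.81) were not made without the 30 min libraries, nor that at Pacsin2 without those of 1 h (-1.30). Those at H2afy (0.80 to 0.85) and Rap1gap2 (1.32 to 1.54) were not made without the libraries of 30 min, 1 h or 4 h, the last of which are all from other compounds.

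For AZD8186 after LPS a single CRE was called higher, at chr7:101412139-101413793 in an intron of Gm45837. It read 87, 98, 105 and 51 along the time course, from 17 in UT, while DMSO had 22 to 37 and the other inhibitors of run 1 had medians of 34.5, 45.5, 38 and 32 (difference 1.17, SE 0.24, limma adjusted p = 0.0266). The highest of the other inhibitors reached 70, 99, 104 and 82 at Gm45837, so the groups overlapped at 1 h and 4 h. The call was not made without the 30 min (1.10) or the 2 h libraries (1.06). Lower CREs lay near the olfactory receptor gene Olfr211 (8, 0, 31 and 29, difference -1.66, SE 0.30, limma adjusted p = 0.00651), in an intron shared by Cmss1 and Filip1l (39, 27, 0 and 14, difference -1.64, SE 0.30, limma adjusted p = 0.00733) and nearest to Pabpc4l (8, 44, 0 and 51, difference -1.61, SE 0.35, limma adjusted p = 0.0346). The Pabpc4l CRE rises with LPS in DMSO, from 73 and 57 to 197 and 277 at 2 h, and stood at 0 in AZD8186 cells at that time. In that AZD8186 library 1 read was worth 10.5 units, so 0 allows up to 31.5. Without the 2 h libraries the differences at Pabpc4l and Filip1l were -0.85 and -1.09, and without those of 1 h that at Olfr211 was -1.17. Without those of 30 min they were -1.50 at Pabpc4l and -1.45 at Olfr211, and none of these was called. After IL-4 the CREs in introns of Mthfs (27, 73, 42 and 0, difference -1.64, SE 0.31), Phtf2 (40, 0, 34 and 10, -1.46, SE 0.28) and Ugt1a9 and Ugt1a10, nearest to Ugt1a8 (31, 15, 8 and 10, -1.45, SE 0.29), were lower than in the run, each with a limma adjusted p of 0.0233. Without the 4 h libraries the differences at Mthfs, Phtf2 and Ugt1a8 were -0.96, -1.34 and -1.24. Without those of 1 h they were -0.75 at Phtf2 and -1.46 at Ugt1a8, without those of 2 h -1.37 at Ugt1a8, and none of these was called.

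TG100115 had 2 calls after IL-4, of which the CRE nearest to Ms4a8a (chr19:11064590-11066221) moved the same way at each time. Its values were 66, 39, 0 and 16, against medians of 67.5, 76, 52.5 and 55 in the other inhibitors (difference -1.52, SE 0.26, limma adjusted p = 0.0193). DMSO had 17 to 45 at Ms4a8a, and the difference of TG100115 from DMSO was not called. Without the 2 h libraries the difference from the run was -0.85 and not called. In UT, TG100115 was lower at an intron of Lrch3 (8, against 37 to 137 in the other inhibitors, -2.59, SE 0.37, limma adjusted p = 0.000101) and at a CRE nearest to Bhlhe40, which encodes a transcription factor (4, against 34 to 115, -2.75, SE 0.47, limma adjusted p = 0.00167). MK2206 in UT was higher at the promoters of Ankrd9 (162, against 41 to 84, 1.26, SE 0.32, limma adjusted p = 0.0323) and Sympk, a scaffold of mRNA 3′ processing (230, against 60 to 124, 1.24, SE 0.30, limma adjusted p = 0.0239). It was lower at a CRE nearest to Bpifb9b (5, against 34 to 102, -2.78, SE 0.46, limma adjusted p = 0.000272) and at one nearest to Pdia4 (0, against 26 to 793, limma adjusted p = 0.000906), of which 70% of the central 500 bases are soft-masked repeats. AZD8186 in UT was lower over a UTR exon of Gtsf1 (7, against 27 to 132 and 100 and 124 in DMSO, -2.79, SE 0.50, limma adjusted p = 0.00789) and read 0 near Unc93a, where DMSO itself had 7 and 10. Each UT value comes from 1 library. In UT 1 read was worth 3.83 units in TG100115, 4.90 in MK2206 and 3.50 in AZD8186 cells. The low values of these CREs all lie under 3 reads, which are 11.5, 14.7 and 10.5 units in the same order, so the sizes of their differences are uncertain.

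FOXO factors bind GTAAACA, and the match to these letters was counted on both strands in the central 500 bases of each CRE. Their windows in 2 of the lower CREs of untreated cells are shown because they hold the letters (in capitals): Lrch3, lower with TG100115 and read on the minus strand, and Bpifb9b, lower with MK2206 and read on the plus strand.
Lrch3, chr16:32972506-32972565: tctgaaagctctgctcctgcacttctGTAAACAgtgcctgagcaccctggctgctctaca
Bpifb9b, chr2:154285696-154285755: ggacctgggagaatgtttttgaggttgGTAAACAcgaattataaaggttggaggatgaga
Over all CREs tested 6.26% held the letters. The share was 9.59% of the 490 CREs lower with MK2206 in UT, 6.35% of the 189 lower after IL-4 and 3.1% of the 129 lower after LPS. It was 6.42% of the 109 CREs lower with TG100115 in UT and 10.5% of the 57 lower with AZD8186 after LPS, but 2.5% of the 40 lower with AZD8186 in UT. The AP-1 letters TGANTCA, present in 25.3% of all CREs tested, were in 26.3% of these 57, in 21.7% of the 129 and in 21.2% of the 189. These shares are descriptions and were not tested.

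Stimulus-regulated CREs were averaged last. In DMSO, 14679 CREs were higher and 12447 lower after LPS at 1 or more times, of 50697 tested, and 6415 were higher and 5192 lower after IL-4, of 47018 (limma moderated F-test, adjusted p under 0.01 and a log2 change over 1). At the CREs higher after LPS the mean log2 difference from the run was -0.03 for AZD8186, 0.01 for TG100115, -0.01 for MK2206 and -0.01 for GSK2110183. At those higher after IL-4 it was 0.07, -0.03, 0.03 and 0.03. All 16 such values, lower CREs included, lay between -0.07 and 0.07 and within the range of the other inhibitors of the run, which spanned -0.17 to 0.11 in run 2 at CREs higher after LPS. The mean over the LPS-induced or IL-4-induced CREs thus did not set any of the 4 compounds apart from its run. A small mean can hold changes in both directions, so it does not show how many of these CREs changed.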

How the data were processed

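H3K27ac ChIP-seq was analysed in BMDMs given DMSO or 1 of 58 CKIs. Per the methods and labels, the authors trimmed single-end reads, mapped them to mm10 with Bowtie through ShortStack (with SAMtools), counted them at CREs around ATAC-seq summits and scaled the libraries by invariant peaks. The deposited values are a score, namely normalized counts rounded to whole numbers by the authors, so no count test was used. No table column was without a sample. Values were analysed as log2(value + 5) with limma 3.58.1 (R 4.3.3, Python 3.11.15, pandas 2.3.3) over CREs with a mean of at least 10, so differences of weak CREs are understated. The fit against DMSO had terms for time and compound, over DMSO and all 58 CKIs. It held the UT libraries with those of 1 stimulus. The fit against the other inhibitors had 1 value per compound, with terms for the run and the compound. The labels name no batch, so runs were read from the column order. Calls needed a Benjamini-Hochberg adjusted p under 0.05 and a log2 difference over 0.5 in size. Reads were estimated from the spacing of the values, and floors (3 reads) cover counting error only. The labels do not say that replicates came from separate cultures, so p-values measure the spread between these libraries, which may be technical. In the fit against DMSO this spread is pooled over DMSO and all CKIs. It takes in departures of a compound from the mean time course, and single libraries at different times stand as replicates. Promoter CREs lie within 1 kb of a protein-coding transcript start (GENCODE), and listed genes without one were left out. Named CREs were the 3 highest and 3 lowest calls per compound and stimulus (2 and 2 in UT) with a mean of at least 50 in the compound or the others and the same sign at each time. The compounds and gene lists were chosen with earlier results of these data known. Alternatives varied the pseudocount, filter, scaling, size threshold, libraries, run term and model. The steps were tested on simulated data. For the fit against DMSO these data held no spread between compounds and no offset of DMSO from the run, so that test covers neither.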

Additional observations from a re-analysis of the deposited data

Results flagged for a closer look

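The difference between the LPS and the IL-4 effect of each compound, both taken against the other inhibitors of its run, was tested in a single limma fit over 59149 CREs, a test chosen after seeing the data. MK2206 had 112 CREs where the effects differed (41 higher and 71 lower after LPS than after IL-4) and AZD8186 had 9. TG100115 and GSK2110183 had none, with 2142 and 79 CREs at an unadjusted limma p under 0.05, against 6460 for MK2206 and 4007 for AZD8186.

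Of the CREs named above, 5 passed this test. In MK2206 cells the Tnrc18 intron differed less from the run after LPS than after IL-4 (LPS minus IL-4 2.13, limma adjusted p = 0.000175), while the Pacsin2 intron (-2.10, limma adjusted p = 0.0137) and the Dna2 promoter (-1.86, limma adjusted p = 0.0052) were lower after LPS. In AZD8186 cells the Filip1l intron was lower after LPS (-2.00, limma adjusted p = 0.0201) and the CRE nearest to Ugt1a8 was lower after IL-4 (2.00, limma adjusted p = 0.0308). These CREs were named because they differed from the run after 1 stimulus, so their differences between the stimuli are not independent of that choice.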

How the results depend on the processing

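Against DMSO, in the order AZD8186, TG100115, MK2206 and GSK2110183, the numbers of calls moved with the scaling, the filter on low values and the libraries used. A mean of at least 50 gave 9530, 3513, 2362 and 1580 after LPS and 9456, 5531, 8154 and 2715 after IL-4. Quantile normalization gave 7157, 166, 119 and 49 after LPS and 9613, 462, 3004 and 263 after IL-4. A log2 difference over 1 left 17143, 8916 and, for GSK2110183, 2762 after LPS, and for TG100115, MK2206 and GSK2110183 15106, 18327 and 3761 after IL-4. A pseudocount of 20 gave 7443 for MK2206 and 1559 for GSK2110183 after LPS and 2450 for GSK2110183 after IL-4, where a pseudocount of 1 gave 11297. Stimulated libraries alone gave 6213 for MK2206 and 952 for GSK2110183 after LPS and 2234 for GSK2110183 after IL-4. Without the suffix b library GSK2110183 had 719 calls after LPS. With 1 DMSO replicate or 1 time left out the calls ranged over 22961 to 28271, 5566 to 16775, 3935 to 12308 and 439 to 4684 after LPS, and over 29142 to 32138, 15024 to 26657, 24846 to 29919 and 2011 to 6744 after IL-4. The lowest counts after LPS came without the 30 min libraries for TG100115 and MK2206 and without those of 2 h for GSK2110183, and the lowest for TG100115 after IL-4 without its 2 h library. Without DMSO replicate 1 or 2 the counts were 11188 and 7072 for TG100115, 7068 and 4129 for MK2206 and 773 and 495 for GSK2110183 after LPS, and 2161 and 2011 for GSK2110183 after IL-4. The DMSO libraries carry replicate numbers and the CKI libraries none. A replicate block for DMSO gave 28161, 17126, 11916 and 4922 calls after LPS and 31775, 25127, 29192 and 7108 after IL-4, and changed none of the 53 listed calls.

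Against the other inhibitors of the run the counts of AZD8186, TG100115 and MK2206 changed by over 1.5 times under several alternatives. In the order AZD8186, TG100115 and MK2206, a pseudocount of 1 gave 358, 38 and 600 calls after LPS, 182, 93 and 664 after IL-4 and 263, 425 and 931 in UT. A pseudocount of 20 gave 1 and 8 for AZD8186 and MK2206 after LPS, 0, 0 and 66 after IL-4 and 0, 1 and 147 in UT. Quantile normalization gave 28 and 9 for AZD8186 and MK2206 after LPS, 85, 0 and 123 after IL-4 and 3, 36 and 189 in UT. Rescaled medians gave 8 for TG100115 and 201 for MK2206 after LPS, 68 for AZD8186 and 1 for TG100115 after IL-4, and 85 for AZD8186 in UT. Without a run term the counts were 37 for AZD8186 after LPS, 1, 0 and 66 after IL-4 and 6, 33 and 224 in UT. With contrast as a covariate they were 325, 18 and 734 after LPS and 175, 50 and 1133 after IL-4. A model of single libraries gave 99, 7 and 48 after LPS, 141, 10 and 580 after IL-4 and 97, 227 and 988 in UT. With the spread of the own run alone all were 0. A mean of at least 50 gave 9 for TG100115 after IL-4, and 19 and 38 for AZD8186 and TG100115 in UT. A log2 difference over 1 gave 1 for TG100115 and 101 for MK2206 after IL-4. Stimulated times and UT together gave 1 and 74 for TG100115 and MK2206 after LPS and 1 for TG100115 after IL-4. With the other 3 compounds left out TG100115 had 1 call after LPS, 1 after IL-4 and 187 in UT, and without the suffix b library it had 42 after LPS. With 1 time left out the calls ranged over 31 to 163, 0 to 5 and 32 to 1211 after LPS and over 9 to 177, 1 to 22 and 10 to 750 after IL-4. GSK2110183 had 0 under each of these alternatives.

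The calls at single times, summed, were 2593 and 1809 for AZD8186 after LPS and IL-4, 332 and 1170 for TG100115, 998 and 7654 for MK2206, and 0 and 0 for GSK2110183. A pseudocount of 1 gave 3961 and 2750, 1531 and 1882, 2108 after LPS for MK2206, and 1 and 2. A pseudocount of 20 gave 792 and 591 for AZD8186 and, after LPS, 21 for TG100115 and 141 for MK2206. Quantile normalization gave 45 and 2455 for TG100115, 270 for MK2206 after LPS, and 1 and 5 for GSK2110183. Without a run term AZD8186 had 994 after IL-4 and TG100115 893 and 618. With the other 3 compounds left out TG100115 had 501 after LPS.

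The mean differences at stimulus-regulated CREs are small, and several turned with the scaling. Without run centring they were -0.14 for AZD8186, 0.0601 for MK2206 and 0.0827 for TG100115 at CREs higher after LPS, and -0.13 for GSK2110183 at those lower after LPS. For IL-4 they were 0.20 for MK2206 and 0.15 for TG100115 at higher CREs, and 0.0924, -0.16 and 0.0318 for AZD8186, GSK2110183 and TG100115 at lower CREs. With rescaled medians they were 0.0879 for GSK2110183 and 0.0661 for MK2206 at CREs higher after LPS and 0.0640 for GSK2110183 at those lower. For IL-4 they were then -0.0336 for AZD8186 and -0.0721 for MK2206 at higher CREs and -0.12 and -0.0384 at lower ones. With 1 time left out they ranged from -0.0945 to 0.0443 for GSK2110183 at CREs higher after LPS, from -0.17 to 0.00859 for MK2206 at those lower after LPS, and from -0.18 to -0.0124 for TG100115 at those lower after IL-4.

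Of 53 listed promoter calls against DMSO, 14 kept their direction and their call with quantile normalization and 37 with rescaled medians. The Ccl22 promoter turned with quantile normalization, to -0.0429 in MK2206 and -0.0719 in TG100115 cells after IL-4. Of 28 named calls against the run, 19 held with quantile normalization, 11 with a pseudocount of 20, 25 in the library-level model, 28 with contrast as a covariate and 0 with the spread of the own run. The cause of these changes was not tested. Depth limits values near 0, where 1 read is worth up to 12.9 units.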

Other observations

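After IL-4, few of the 37 promoters of interferon-stimulated genes were called against DMSO. AZD8186 had 2 higher and 1 lower (48.5% and 5.25% of all CREs), TG100115 2 and 5 (41.2% and 1.31%), MK2206 3 and 4 (46.4% and 3.02%) and GSK2110183 0 and 1 (11.1% and 1.06%). The median log2 differences were -0.16, -0.28, -0.30 and 0.06, beside 0.55, 0.49, 0.55 and 0.26 over all CREs. In the highest quintile by DMSO mean the medians were -0.20, -0.15, -0.21 and -0.04. An unadjusted limma p under 0.05 was given to 14, 21, 25 and 10 promoters. The other inhibitors of run 1 had 4 to 15 lower and medians of -0.43 to -0.24, so AZD8186 lay outside its run in both. No promoter of the list was called by limma against the other inhibitors of the run, with 6, 1, 3 and 0 at an unadjusted p under 0.05. With rescaled medians 35, 34, 33 and 3 were lower than DMSO and with quantile normalization 1, 1, 2 and 0.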
